A study of Mus musculus with 8 samples.

Results

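The mitochondrial respiratory chain genes were read from 8 one-colour microarrays of mouse spleen natural killer (NK) cells, sorted by a green fluorescent reporter of choline acetyltransferase (ChAT-eGFP). Members were taken by symbol from the genes named by RefSeq accession on the array. Their symbols begin with Nduf, a subunit letter and a digit, with Uqcr or Atp5, or with Cox4 to Cox8 and a letter a to c. Sdha, Sdhb, Sdhc, Sdhd, Cyc1 and Cycs were also taken. This symbol rule uses no measured value and took 84 of 20284 named genes: 37 of complex I, 4 of complex II, 9 of complex III, 16 of complex IV, 17 of complex V and cytochrome c. Of the 84, 81 had a probe that cleared background on 4 or more of the 8 arrays and were tested among 13607 genes. The 3 that were not are Cox7b2, Cox8b and Cox8c, all of complex IV. Cox4i1, Cox4i2, Ndufab1 and the subunits encoded by mitochondrial DNA fall outside the symbol rule and are not described.

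The 2 groups were magnetically enriched spleen NK cells with the reporter (ChAT_positive, 4 pools) and without it (ChAT_negative, 4 pools). Each pool held cells of 2 to 4 mice, all carrying the reporter. The labels give no age, sex, strain background or treatment, and do not say whether pools of a group shared mice, so p-values measure the spread between these pools, which may be technical in part. Each group's 4 arrays shared a slide and, in the file headers, a scan date, and no array of the other group had either. Slide, scan date and group thus cannot be told apart. In these sorted bulk samples, fewer cells of a type and less RNA per cell cannot be told apart either.

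The respiratory chain sits in the inner mitochondrial membrane. Complexes I and II pass electrons from NADH and succinate to ubiquinone, complex III passes them on to cytochrome c, and complex IV passes them to oxygen. Complexes I, III and IV pump protons, and complex V, the ATP synthase, uses the gradient to make ATP. NK cells draw on this chain at rest and, together with glycolysis, when cytokines activate them.

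Many of these genes are known to carry sites for the nuclear respiratory factor NRF1 and the ETS factor GABPA near their start. Of the 84 members, 69 matched a promoter in the RefSeq table (build GRCm38.p6, 250 bases before to 50 bases after each start). The NRF1 motif GCGCANGCG was found on either strand in 21 of the 69 (30.4%), against 13.7% of 10901 tested genes and 7.03% of all 27025 genes with a promoter. The ETS motif CCGGAAG was found in 17 (24.6%, against 18.5% and 9.93%), the YY1 motif AAGATGGCG in 7 (10.1%, against 3.3% and 1.64%) and the ESRRA motif TCAAGGTCA in 2 (2.9%, against 0.376% and 0.466%). Matches to different motifs were counted separately even where they overlap. A match is a description of the letters and not of binding.

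The promoters below are those of cytochrome c, of 2 subunits of complex II, and of 3 of the subunits that stood low in the comparison of the groups and had a promoter in the table. Each runs 5′ to 3′ over the 250 bases before the start, and capitals mark motif matches.
Cycs: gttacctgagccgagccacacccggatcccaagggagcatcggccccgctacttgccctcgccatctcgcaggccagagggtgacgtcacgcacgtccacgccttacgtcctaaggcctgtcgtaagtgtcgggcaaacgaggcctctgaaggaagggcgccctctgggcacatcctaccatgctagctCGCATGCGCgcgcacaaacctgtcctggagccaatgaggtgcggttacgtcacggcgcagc
Sdha: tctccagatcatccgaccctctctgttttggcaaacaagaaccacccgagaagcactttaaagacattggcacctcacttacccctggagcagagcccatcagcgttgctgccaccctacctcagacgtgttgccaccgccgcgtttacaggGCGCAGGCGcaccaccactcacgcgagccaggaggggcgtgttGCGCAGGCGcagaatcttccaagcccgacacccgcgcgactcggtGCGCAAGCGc
Sdhd: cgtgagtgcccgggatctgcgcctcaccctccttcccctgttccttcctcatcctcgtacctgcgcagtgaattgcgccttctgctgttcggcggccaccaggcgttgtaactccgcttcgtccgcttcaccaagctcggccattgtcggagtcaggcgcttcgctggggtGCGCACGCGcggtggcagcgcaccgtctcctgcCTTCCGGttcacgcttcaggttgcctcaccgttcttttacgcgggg
Atp5h: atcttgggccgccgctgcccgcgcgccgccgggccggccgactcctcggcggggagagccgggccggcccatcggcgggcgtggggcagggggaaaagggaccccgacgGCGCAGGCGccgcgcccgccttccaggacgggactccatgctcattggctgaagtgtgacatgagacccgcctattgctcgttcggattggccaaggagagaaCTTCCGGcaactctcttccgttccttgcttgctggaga
Atp5pb: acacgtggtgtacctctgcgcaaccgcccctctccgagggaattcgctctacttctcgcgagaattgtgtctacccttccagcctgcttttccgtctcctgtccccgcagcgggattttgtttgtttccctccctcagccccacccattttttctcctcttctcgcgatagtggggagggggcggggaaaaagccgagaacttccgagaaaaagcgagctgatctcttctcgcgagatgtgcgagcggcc
Ndufa7: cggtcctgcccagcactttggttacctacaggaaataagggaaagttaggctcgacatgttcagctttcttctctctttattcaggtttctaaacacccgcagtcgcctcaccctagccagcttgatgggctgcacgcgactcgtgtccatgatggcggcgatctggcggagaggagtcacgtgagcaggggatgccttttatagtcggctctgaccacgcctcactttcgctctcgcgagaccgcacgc
Cycs (chr6:50566570-50566819, minus strand) has an NRF1 match whose first base lies at -61 from the start. Sdha (chr13:74350241-74350490, minus strand) has 3 NRF1 matches, at -98, -55 and -10. Sdhd (chr9:50603850-50604099, minus strand) has NRF1 at -79 and ETS at -46, and an ESRRA match at 37, after the start and outside the stretch shown. Atp5h (chr11:115419920-115420169, minus strand) has NRF1 at -141 and ETS at -38. Atp5pb (chr3:105959264-105959513, minus strand) and Ndufa7 (chr17:33824322-33824571, plus strand, the first of 2 overlapping windows in the table) hold none of these letters in the stretch shown. By complex, the NRF1 motif was in 7 of 15 promoters of complex V, 8 of 32 of complex I, 2 of 5 of complex III, 2 of 3 of complex II and 1 of 13 of complex IV. The median log2 fold change between the groups was -0.05 for the 21 tested members with the NRF1 motif and -0.07 for the 46 without, and -0.11 for the 17 with the ETS motif against -0.04 for the 50 without. For the 7 members with the YY1 motif it was 0.08 against -0.07 for the 60 without, and for the 2 with the ESRRA motif -0.21 against -0.06 for the 65 without. Of the members with the ETS motif 15 of 17 lay below 0, against 31 of 50 without it. Of those with the YY1 motif 3 of 7 did, against 43 of 60. These differences between members were not tested.

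All levels below are log2 of the scanner's processed signal less the 75th percentile of the array, with the brightest probe standing for a gene, and a log2 fold change is ChAT_positive minus ChAT_negative. A call is a limma adjusted p under 0.05, adjusted over all 13607 genes. Of all genes 5.95% were called, 2.81% higher and 3.15% lower in ChAT_positive. With each array scaled on its median, 212 genes were higher and 119 lower, in place of 382 and 428. Between 50.2% and 63.2% of an array's probes were well above background, and none was saturated. Before scaling, the spike-in control E1A_r60_a135 had log2 signals of 11.87 to 14.11 on ChAT_positive and 10.46 to 12.67 on ChAT_negative arrays. The bright control E1A_r60_1 had 16.49 to 16.97 and 16.68 to 17.01. Values were not scaled on these controls, so a level is relative to its array and does not give an amount of RNA. Chat itself was higher in ChAT_positive, at 3.75 ± 0.25 against 2.65 ± 0.34 (SD, n = 4 each, limma adjusted p = 0.0201). All 10 NK cell markers were well above background on every array. Klrb1c, which encodes the NK1.1 antigen, fell by 1.60 (SE 0.13, limma adjusted p = 0.00103), while Ncr1, the NK receptor NKp46, had -0.66 (limma adjusted p = 0.122).

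Transcripts of the respiratory chain had nearly the same measured level in the NK cells with and without the reporter. No member was called higher and 1 of 81 (1.23%) was called lower, the complex I subunit Ndufa7. Of all genes 5.95% were called, but only 0.882% of the genes above the 90th percentile of signal. The members' share was thus near that of other bright genes. At an unadjusted limma p under 0.05 there were 2 of 81 members (2.47%), Ndufa7 and Sdhc, both lower, where 24.8% of all tested genes passed. The log2 fold change was within 0.25 of 0 for 74 of 81 members (91.4%), against 53.3% of all genes. It was so for 82.1% of the 1361 genes above the 90th percentile of signal, where 64 of the 81 members lie. The closeness to 0 was thus largely shared by bright genes. The 95% interval lay wholly within 1.5-fold in either direction for 67 members (82.7%) and within 2-fold for 78 (96.3%). These shares were 43.5% and 77.5% for all genes, and 76.6% and 98.2% for the 1361 bright genes. For most members a 1.5-fold difference in measured level thus lies outside the interval. Before scaling, the members' median rose by only 0.48 for each unit of the array percentile used in scaling. Whether differences in these bright signals understate differences in RNA was not tested.

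**Figure D1:**
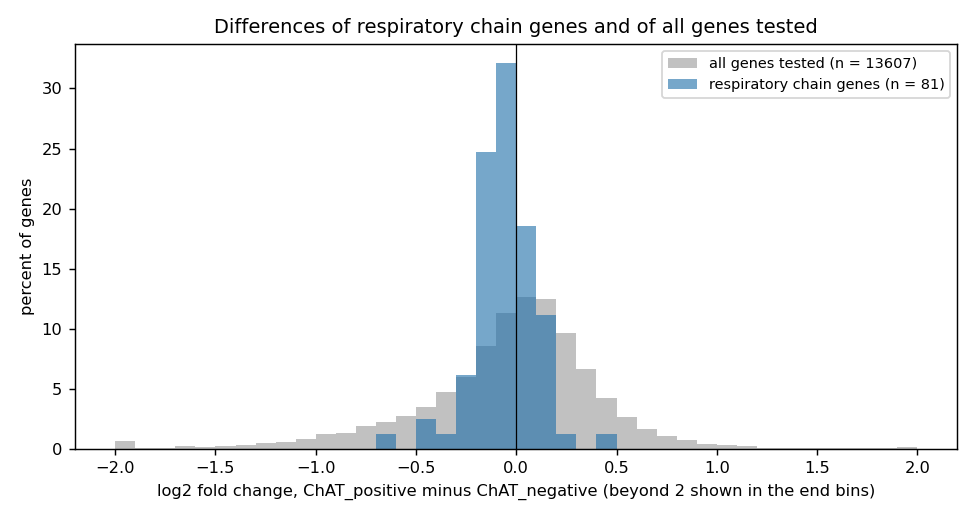
Percent of genes in bins of log2 fold change (ChAT_positive minus ChAT_negative) for the 81 respiratory chain genes (blue) and all 13607 genes tested (grey). The respiratory chain genes gather close to 0, with 91.4% within 0.25, and their peak lies just below it.

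The small differences leaned one way. Of the 81 members 55 (67.9%) had a log2 fold change below 0, where 46.9% of all genes did, and the members' median was -0.06 (quartiles -0.13 and 0.04) against 0.03 (quartiles -0.23 and 0.23) for all genes. The members' probes are bright: 64 of 81 were among the 1361 genes above the 90th percentile of signal. Those 1361 genes had a median of -0.05, and 61.9% of them lay below 0. They also had fewer differences than the rest, with 7.71% at an unadjusted p under 0.05. The members' lean was thus near that of other bright probes. Scaled on the array median, the all-gene median moved from 0.03 to 0.24 and the members' median from -0.06 to 0.16, so the sign of the small differences follows the scaling, while the members' median stayed below the all-gene median.

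**Figure D2:**
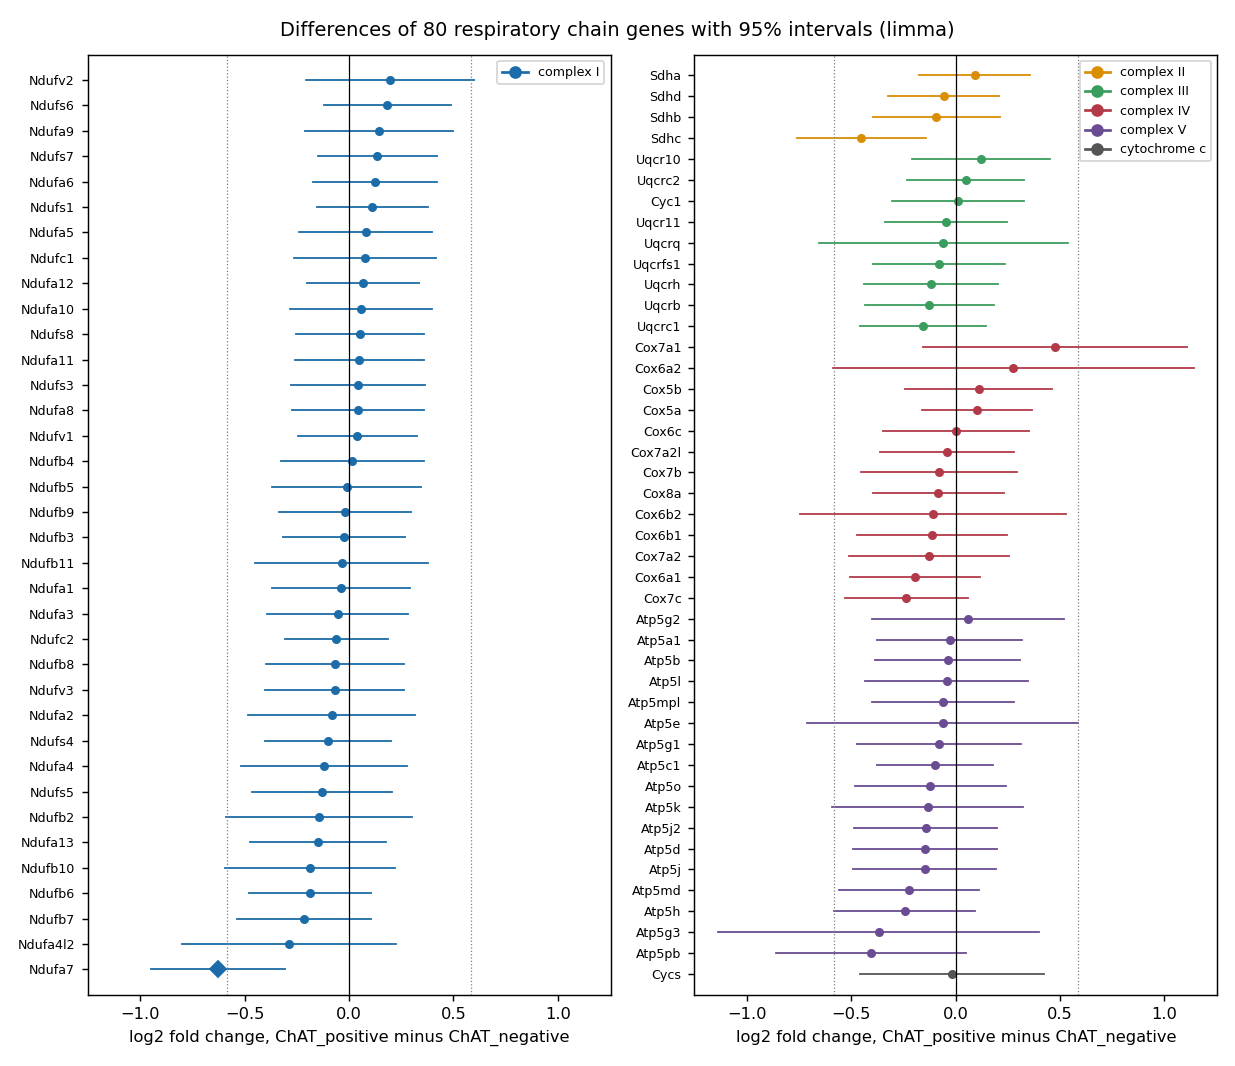
Log2 fold change (point) with its 95% interval from limma (line) for 80 of the 81 tested genes, complex I on the left and the other complexes on the right, ordered by size within a complex. The diamond is the 1 called gene, Ndufa7, and dotted lines mark 1.5-fold. Most intervals lie between the dotted lines, and 16 of 17 points of complex V lie left of 0.

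Complex I, the NADH dehydrogenase, had a median of -0.02, with 16 members above and 21 below 0. Scaled on the array median it was 0.20, with 35 above and 2 below. Its catalytic core subunits encoded in the nucleus include those that carry the flavin and the iron-sulphur clusters through which electrons travel. None was called or passed an unadjusted limma p of 0.05. Ndufv2, an iron-sulphur subunit of the NADH-binding module, was highest at 0.19 (SE 0.18, limma adjusted p = 0.539). Its levels were 4.33, 4.67, 4.78 and 4.11 in ChAT_positive replicates 1 to 4, and 4.49, 4.36, 4.02 and 4.24 in ChAT_negative replicates 1 to 4, so the groups overlapped. Ndufs7, which holds the last cluster before ubiquinone, had 0.14, Ndufs1 0.11, Ndufs8 0.05, Ndufs3 0.04 and the flavin-binding Ndufv1 0.04. Among accessory subunits, which build and stabilise the complex, Ndufs6 had 0.18, Ndufa9 0.14 and Ndufa6 0.12, none of them called.

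Ndufa7, an accessory subunit, was the exception. Its levels were 2.82, 3.25, 3.12 and 2.70 in ChAT_positive pools (2.97 ± 0.25, SD, n = 4) and 3.60, 3.62, 3.54 and 3.65 in ChAT_negative pools (3.60 ± 0.05, SD, n = 4). Every ChAT_positive pool was below every ChAT_negative pool, and the ChAT_positive pools were the more spread. Ndufa7 fell by 0.63 on the log2 scale (SE 0.14, limma adjusted p = 0.0376, 1.55-fold, two-sided exact permutation p = 0.0286, which 2 groups of 4 cannot go below). The gene has 1 probe, so no second measurement bears on it. With each of the 8 arrays left out in turn the call held only without ChAT_positive replicate 2 (adjusted p = 0.0295), and the adjusted p was between 0.0642 and 0.101 without each of the other 7. The log2 fold change lay between -0.72 and -0.54 over these 8 fits. Scaled on the array median it was -0.41 (adjusted p = 0.288).

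Ndufa13 (GRIM-19), an accessory subunit also known from cell death and STAT3 signalling, had one of the brightest probes of the set. Its log2 fold change was -0.15 (SE 0.14, limma adjusted p = 0.56), with means of 4.94 and 5.09 and overlapping groups. Ndufa4 was first assigned to complex I and is now counted with complex IV, and had -0.12. Its paralogue Ndufa4l2, which is induced by low oxygen, was at the dim end, cleared background on 3 of 4 arrays with the reporter and 4 of 4 without it, and had -0.29 (SE 0.23).

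Complex II oxidises succinate and belongs to the tricarboxylic acid cycle as well as the chain. Its flavoprotein Sdha had 0.09 and its iron-sulphur protein Sdhb -0.09. Of the membrane anchors, Sdhd had -0.06 and Sdhc -0.45 (SE 0.14, limma adjusted p = 0.0838), which was not called. Sdhc levels were 2.63, 2.57, 2.80 and 2.91 in ChAT_positive and 3.35, 3.26, 2.93 and 3.18 in ChAT_negative pools, so the groups did not overlap, though by a narrow margin. Its second, dimmer probe gave a difference of -0.03, the widest gap between probes of any member. Across the 23 members with more than 1 kept probe, all probes had the same sign in 15, and the median gap between a gene's highest and lowest probe was 0.12.

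**Figure D3:**
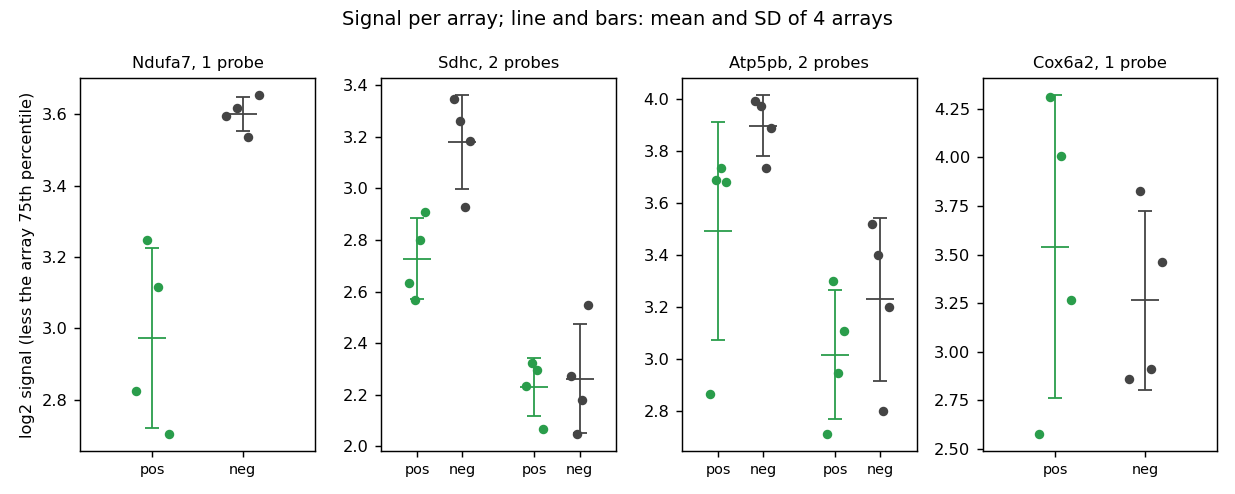
Log2 signal less the array's 75th percentile for Ndufa7, Sdhc, Atp5pb and Cox6a2, with each of the 4 arrays per group as a point, the mean as a line and the SD as bars (green ChAT_positive, pos; black ChAT_negative, neg). Where a gene has 2 probes, the left pair is the brighter one used for testing. The groups are apart for Ndufa7 and for the brighter probes of Sdhc and Atp5pb, only just for Atp5pb. They overlap for the second probes and Cox6a2. Vertical axes differ between panels and do not start at 0.

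Complex III had no call among its 9 members, and none passed an unadjusted limma p of 0.05. Its log2 fold changes ran from -0.16 (Uqcrc1, a core protein) to 0.12 (Uqcr10, a small subunit), with a median of -0.06. The electron carriers were close to 0. The Rieske iron-sulphur protein Uqcrfs1 had -0.08, and cytochrome c1, Cyc1, had 0.01 (SE 0.14, limma adjusted p = 0.972). Cytochrome c itself, Cycs, which also triggers the caspase cascade when released, had -0.02 (SE 0.19, limma adjusted p = 0.969). Its levels were 4.37, 4.70, 4.67 and 4.09 in ChAT_positive and 4.73, 4.65, 4.05 and 4.47 in ChAT_negative pools, ranges that almost coincide.

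Complex IV, cytochrome c oxidase, has isoforms that differ between tissues, and detection separated them only in part. The tissue forms Cox6a2, Cox6b2 and Cox7a1 were well above background on all 8 arrays, as the common forms were. The forms made in most tissues were well above background on all 8 arrays and none was called: Cox6a1 had a log2 fold change of -0.20, Cox6b1 -0.11, Cox7a2 -0.13, Cox7a2l -0.04, Cox7b -0.08 and Cox8a -0.08. The heart and muscle form Cox8b and the testis form Cox8c were not well above background on any array. Cox7b2 cleared it on 1 of 4 arrays with the reporter and 0 of 4 without it. The testis form Cox6b2 was detected on all arrays with dim signal and had -0.11. The muscle form Cox7a1 had the highest log2 fold change of the 81 tested members, 0.48 (SE 0.28, limma adjusted p = 0.327), with dim levels of -1.38, -2.21, -0.94 and -1.23 in ChAT_positive and -2.03, -2.35, -1.64 and -1.65 in ChAT_negative pools. The groups overlapped through ChAT_positive replicate 2.

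Cox6a2, known from heart and skeletal muscle and also from plasmacytoid dendritic cells, was well above background on all 8 arrays. Its levels were 2.58, 4.31, 4.01 and 3.27 in ChAT_positive and 2.86, 3.82, 2.91 and 3.46 in ChAT_negative pools. The pools of a group differed by more than the groups did, with SDs of 0.78 and 0.46 and a difference on the log2 scale of 0.28 (SE 0.38, limma adjusted p = 0.693). Siglech, a marker of plasmacytoid dendritic cells, was at 4.60, 5.04, 4.51 and 4.55 in ChAT_positive and 5.05, 5.09, 4.34 and 4.75 in ChAT_negative pools. Both genes were highest on replicate 2 of each group, but they parted on other arrays. On ChAT_negative replicate 1 Cox6a2 was lowest in its group (2.86) with Siglech at 5.05. On ChAT_positive replicate 3 Siglech was lowest in its group (4.51) with Cox6a2 at 4.01. Their relation was not tested. Cox7c, a small subunit, had -0.24 on its brightest probe and 0.01 and 0.14 on its other probes.

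Complex V had the lowest median of the complexes, except without ChAT_negative replicate 1 or 2, where complex II was lower. Of its 17 members 16 had a negative log2 fold change, the median was -0.12, and only Atp5g2 lay above 0, at 0.06. None was called, and none passed an unadjusted limma p of 0.05. Scaled on the array median, 13 of 17 lay above 0 with a median of 0.10, still below the all-gene median of 0.24. The catalytic subunits Atp5a1 and Atp5b had -0.03 and -0.04. The lowest were Atp5pb and Atp5h, of the stalk that holds the catalytic head still, at -0.40 and -0.25, the ring subunit gene Atp5g3 at -0.37 and Atp5md, a small membrane subunit that helps to hold synthase dimers together, at -0.22.

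Atp5pb levels were 2.87, 3.69, 3.74 and 3.68 in ChAT_positive and 3.99, 3.97, 3.74 and 3.89 in ChAT_negative pools. The groups did not overlap, but only by 3.7361 on ChAT_positive replicate 3 against 3.7364 on ChAT_negative replicate 3. Of the 4 ChAT_positive pools 3 lay just under the ChAT_negative pools and replicate 1 far below (log2 fold change -0.40, SE 0.20, limma adjusted p = 0.253). The second, dimmer probe of Atp5pb gave a difference of -0.21, with overlapping groups. Ndufa7, Sdhc and Atp5pb were the only 3 of 81 members with every ChAT_positive array below every ChAT_negative one, where 6.15% of all genes did so and 15.5% were apart in either direction. Of the 3 genes for the ring subunit c, Atp5g1 had -0.08, Atp5g2 0.06 and Atp5g3 -0.37 (SE 0.34, limma adjusted p = 0.542). None was called, and in the ChAT_negative group all 3 were lowest on replicate 3. Atp5g3 was at 3.15, 3.55, 2.91 and 2.91 in ChAT_positive and at 4.07, 3.84, 2.42 and 3.67 in ChAT_negative pools. 3 ChAT_negative pools were high and replicate 3 was the lowest of all 8. Atp5h, with one of the brightest probes of the set, was at 4.98 ± 0.14 and 5.22 ± 0.24 (SD, n = 4 each), and both its probes were below 0, at -0.25 and -0.20.

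The members moved together from array to array more than they differed between groups. The median level of the 81 members was 4.03, 4.29, 4.20 and 3.93 on ChAT_positive arrays and 4.26, 4.16, 3.89 and 4.23 on ChAT_negative arrays, so the groups overlapped. On ChAT_negative replicate 3, 79 of 81 members lay below the mean of their group, and on ChAT_positive replicate 4, 75 of 81. On ChAT_positive replicate 2 and ChAT_negative replicate 1, 74 and 76 of 81 lay above it. Over all genes the share above the group mean ran from 36.2% to 59.4% on the 8 arrays. The complexes shared this pattern, each having its lowest median in the ChAT_negative group on replicate 3.

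**Figure D4:**
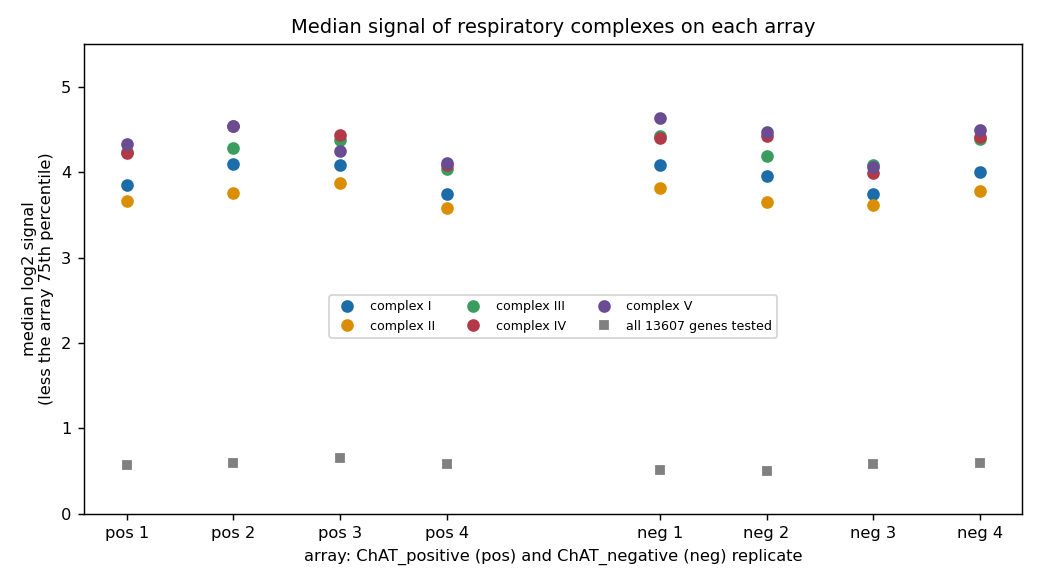
Median log2 signal, less the array's 75th percentile, of the tested members of each complex (circles) and of all 13607 genes (grey squares) on the 8 arrays (pos, ChAT_positive; neg, ChAT_negative; numbers are replicates). The circles are lower together on positive replicate 4 and negative replicate 3, while the all-gene median stays between 0.50 and 0.65.

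This shared level went with the overall brightness of the array. Against the array's 75th percentile of log2 signal, the members' median level had Pearson r = -0.92 (exact permutation p = 0.00109) and Spearman rho = -0.79 (exact permutation p = 0.0279, n = 8 arrays), the 1 relation computed of this kind. The percentile is subtracted in the level, so the measures share a term, which by itself pulls r below 0. The permutations do not keep that term, so their p-values do not test a relation. Before subtraction the members' median rose by 0.48 for each unit of the percentile, less than in step. The 2 arrays farthest from the median percentile were ChAT_negative replicate 3 and ChAT_positive replicate 4. Without them r was weaker, at -0.72 (exact permutation p = 0.104, n = 6), and holds the same shared term. Each slide holds 4 arrays of 1 group, too few for a value within a slide. The part of array brightness in the differences between groups was not tested.

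Other cell types' markers differed between the groups beside these results. The summed log2 level of 8 B cell markers was 6.26 to 6.69 on ChAT_positive and 5.58 to 6.0 on ChAT_negative arrays. That of 10 markers of innate lymphoid cells was 5.24 to 6.09 against 4.58 to 5.04. Basophil and mast cell markers (8 genes) went the other way, at -0.15 to 1.93 against 3.19 to 5.44, and so did the 10 NK cell markers, at 7.01 to 7.55 against 7.65 to 7.88. The sums of T cell (10), neutrophil (9), monocyte (9), dendritic cell (8) and platelet (7) markers overlapped between the groups. Single markers of these types still differed: of those tested, 2 of 8 neutrophil (Mpo and Retnlg), 2 of 7 platelet (Ppbp and Clec1b) and 2 of 7 dendritic cell markers (Itgax and Clec9a) were called, all lower in ChAT_positive. The median log2 fold change was -2.17 for the neutrophil markers, with 7 of 8 below 0, and -1.03 for the platelet markers, with 7 of 7 below 0. The sums of 7 erythroid markers were 3.85 to 3.91 against 4.28 to 4.68. Of the basophil and mast cell markers 4 to 6 of 8 were well above background on a ChAT_positive array and 7 to 8 on a ChAT_negative array, while all 8 B cell and all 10 innate lymphoid markers were so on every array. The part of these cells in the respiratory chain values was not tested.

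Genes that build the chain, rather than form it, lay mostly above 0, where 53.1% of all genes did. Their few calls stand beside the 5.95% called among all genes. Of 15 tested complex I assembly factors, 12 had a positive log2 fold change (median 0.17) and 1 was called: Nubpl, which delivers iron-sulphur clusters to complex I, was higher by 0.62 (SE 0.15, limma adjusted p = 0.0472). Of 29 tested assembly factors of complexes II to V, 23 were above 0 (median 0.17) and 2 were called, both of complex IV. Sco1, a copper chaperone, rose by 0.60 (SE 0.13, limma adjusted p = 0.0368) and Cox15, of haem A synthesis, by 0.57 (SE 0.12, adjusted p = 0.0345). Cox15 levels were 1.25 ± 0.06 and 0.68 ± 0.19 (SD, n = 4 each), but its second probe gave 0.17 (adjusted p = 0.696).

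Of 22 regulators of mitochondrial biogenesis and mitochondrial DNA expression, 18 lay above 0 (median 0.19) and 1 was called. Ppargc1b, a coactivator of the PGC-1 family that promotes respiratory chain genes, rose by 0.52 (SE 0.11, limma adjusted p = 0.0336), from a level of -1.21 ± 0.11 to -0.69 ± 0.09 (SD, n = 4 each). The calls of Nubpl, Sco1, Cox15 and Ppargc1b depended on single arrays. Without any 1 of ChAT_positive replicates 1, 2 and 3 or ChAT_negative replicates 1, 3 and 4, 0 of the 4 were called. Without ChAT_positive replicate 4, Sco1 was still called, and without ChAT_negative replicate 2, Cox15. Their log2 fold changes stayed between 0.47 and 0.67 over these 8 fits.

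Of 21 tricarboxylic acid cycle and pyruvate dehydrogenase genes, which supply the chain with NADH and succinate, 16 lay above 0 (median 0.14). None was called by limma, and 2 passed an unadjusted p of 0.05, where 24.8% of all genes did. Pdha1, the catalytic subunit of pyruvate dehydrogenase, had -0.52 (adjusted p = 0.126) and Dlat, its acetyltransferase, 0.33 (adjusted p = 0.197). Of 77 mitochondrial ribosomal proteins, which translate the subunits encoded by mitochondrial DNA, none was called and 5 passed the unadjusted threshold, with a median of 0.06. Mrpl35 had -0.67 (limma adjusted p = 0.11) and Mrpl50 0.38 (adjusted p = 0.118). With the replicate number added to the fit as a block, Pdha1 and Mrpl35 were called lower.

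Of 12 carriers and channels of the mitochondrial membranes, none was called by limma and 2 passed the unadjusted threshold, with a median of 0.06. The glutamate carrier Slc25a22 had 0.41 (adjusted p = 0.158) and the outer membrane channel Vdac2 0.28 (adjusted p = 0.196). Of 8 genes of superoxide and peroxide defence, none was called and 2 passed it, a share like that of all genes, with a median of -0.04. The 2 were Gpx4, which reduces lipid peroxides, at -0.37 (limma adjusted p = 0.147) and Prdx5, a peroxiredoxin, at -0.35 (adjusted p = 0.171). Genes tested between the 50th and 80th percentile of signal had medians of 0.08 to 0.12 in steps of 10 percentiles, and those above the 90th had -0.05. The median signal of both assembly lists, the regulators and the tricarboxylic acid cycle list fell between the 50th and 80th percentiles, and their medians, 0.14 to 0.19, were above that range. Whether the assembly factors or regulators differ from other genes of their signal was not tested.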

How the data were processed

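RNA of 4 ChAT_positive and 4 ChAT_negative pools was hybridised to one-colour Agilent arrays (Cy3). Per the file headers, the authors' scanner files hold spot intensity on a linear scale from Feature Extraction 11.5.1.1, with the background subtracted and no scaling across arrays. The deposited value table holds log2 values of 31942 probes, which followed log2 processed intensity less about the 75th percentile of the array, with column medians of -0.72 to -0.63. The authors' own steps for it are not stated.

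From 55681 probes that are not controls (outlier spots left out, spots of a probe averaged), 26762 were named with 1 symbol by RefSeq accession through the reference gene table, and 28919 were not named. The log2 processed intensity less the array's 75th percentile was kept for 32086 probes that cleared background (the scanner's flag) on 4 or more of 8 arrays, and the brightest probe stood for a gene. The fit used limma 3.58.1 (lmFit and eBayes, R 4.3.3) with Benjamini-Hochberg adjustment over 13607 genes, and was checked on simulated data. There it called 68% of 2-fold and 90% of 4-fold changes, and 1.86% of its calls were false. Simulated noise was drawn separately for each gene, unlike the shared shifts of members between these arrays. The number of arrays limits the precision. Named are called members, the 8 highest and 8 lowest, the 3 brightest, complex II, Cyc1, Cycs, isoform families, the complex I core, up to 3 called genes or the 2 of lowest p in each related list, and anchors. Other members with values (Uqcrc1, Uqcrfs1, Atp5a1, Atp5b) and single markers of other cell types were chosen after their values were seen. The values of 1 member are not reported here. The members and lists were chosen with earlier results of these data known.

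Same-numbered replicates are not said to share a batch. Replicate numbers were not taken as pairs. Alternatives changed the scaling, background correction, filter, probe choice, variance model and replicates.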

Additional observations from a re-analysis of the deposited data

Results flagged for a closer look

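In 10 of 162 groups of 4 arrays, 1 array stood apart from the other 3 by a gap that takes up more of the group's whole range than Dixon's 95% critical value for 4. Chance alone gives about 1 in 20 such groups. In 8 of the 10 the array was ChAT_negative replicate 3, always the lowest: Ndufa3 (gap over range 0.964), Cox6b1 (0.945), Uqcr10 (0.939), Cox8a (0.874), Ndufa6 (0.873), Atp5e (0.844; 3.61 against 4.67 to 4.86), Ndufs5 (0.841) and Atp5g2 (0.84; 4.18 against 4.87 to 5.00). The others were Cox5a, lowest on ChAT_positive replicate 4 (0.871), and Atp5pb, lowest on ChAT_positive replicate 1 (0.936; 2.87 against 3.68 to 3.74). Members share each array, so these are not 8 separate events.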

How the results depend on the processing

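Under 23 alternatives no member was called higher, and Ndufa7 stayed negative. Members called lower were 0 under median scaling, no filter on dim probes, a filter at 1 of 8 arrays, and without both arrays numbered 3. They were 2 (Ndufa7 and Sdhc) under normexp with quantile normalization, under a robust variance trend, and at an adjusted p under 0.1, and 0 to 1 with 1 array left out. The members' median was 0.16 under median scaling and below the all-gene median in 23 of 23 settings, by 0.02 to 0.17. Of 37 named members with a value, 22 changed sign somewhere and 35 were never called. Related genes called higher were 0 under median scaling, no filter, and without both arrays numbered 3, 2 on the second brightest probe (chosen after seeing the data, as was scaling on the 90th percentile), and 0 to 2 with 1 array left out. Those called lower were 1 under normexp, 2 with the replicate block, 1 at an adjusted p under 0.1, and 0 to 1 with 1 array left out. All genes called higher and lower, 382 and 428, became 212 and 119 under median scaling, 98 and 126 with no filter, 1002 and 1344 with the replicate block, 21 and 35 without both arrays numbered 3, and 868 and 838 at an adjusted p under 0.1. Genes called higher were 649 under normexp and 577 with array weights. With 1 array left out they were 94 to 305 higher and 116 to 429 lower. Same-numbered arrays deviated from their group means with correlations of 0.54, 0.66, 0.52 and 0.03 (replicates 1 to 4). Arrays numbered 1 to 3 correlated best with their own number, and those numbered 4 did not. The labels name no pairs, so the main fit has no block. Whether same-numbered pools share a batch was not tested. The block changed no call among the members, and brought in Pdha1 (adjusted p = 0.0356) and Mrpl35 (0.0152), the 2 related genes called lower with it. Apart from fewer arrays or a looser threshold, the cause of these shifts was not tested.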
